A study of Mus musculus with 9 samples.

Results

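Nppb (spelled NPPB in the files), which encodes the brain (B-type) natriuretic peptide, was read in 2 bisulfite amplicons, Nppb_1 and Nppb_2, chosen by their region names from 30 target regions of 15 heart and cell cycle genes. They hold 16 CpG sites, 10 in Nppb_1 and 6 in Nppb_2. All 16 had at least 30 reads in each of the 9 libraries, as did 310 of the 355 CpG sites listed in the series, spread over 26 regions. The study asked how methylation of these promoters differs after knockdown of the enzymes DNMT3a or DNMT3b. The cells were primary ventricular cardiomyocytes of CD-1 mice at embryonic day 13.5, with the ventricles of each litter pooled. After 48 h in culture they received 0.012 pmol of DNMT3a siRNA, DNMT3b siRNA or negative siRNA (3 libraries each), the first 2 as mixtures of siRNAs against one gene. At 72 h after transfection, cells carrying the surface protein VCAM1 were selected on magnetic columns. All groups thus share transfection and selection. Only DNA was measured, so the degree of knockdown, the purity of the cells and the expression of Nppb were not analysed here. The labels do not say whether the 3 libraries of a group came from separate litters or cultures, so p-values measure the spread between these libraries.

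Brain natriuretic peptide is a hormone that ventricular cardiomyocytes release under stretch. It signals through a guanylyl cyclase receptor in vessels and kidney, lowers blood pressure and limits cardiac growth. Nppb is active in the embryonic ventricle, is reduced after birth, and is switched on again in failing hearts. Methylation of cytosine in CpG dinucleotides is placed on unmethylated DNA by DNMT3a and DNMT3b and is copied at replication by DNMT1. In bisulfite sequencing an unmethylated cytosine is read as T and a methylated one as C, and the level of a CpG is the percent of its reads that carry C.

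The files give each cytosine an offset within its amplicon and the 3 bases that start at it. The letters they spell around the 6 CpGs of Nppb_2 are shown because the groups separate there. The CpG is in capitals and n marks a base the files do not spell.
Nppb_2 offset 51: caancatnnnncCGannnncccagnn
Nppb_2 offset 238: nnnnncactgnnCGcacacctgnnnn
Nppb_2 offset 312: nnnnnctgnnnnCGtnnnnnnnnnnn
Nppb_2 offset 328: nnnnnnnnnnnnCGtcactgnnnncc
Nppb_2 offset 341: gtcactgnnnncCGancagctannnn
Nppb_2 offset 381: nccttncccacaCGtctgnnnnctan
In Nppb_1, the highest and the lowest CpG are given for contrast.
Nppb_1 offset 59: tgncctgnnnnnCGgnnnnnnnnnnn
Nppb_1 offset 136: taccagnnnnccCGgnnnnnnnncag

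Nppb lies on chromosome 4 at 147985786 to 147987205 in GRCm38.p6, the assembly behind the build mm10. Its neighbour Nppa, which encodes the atrial natriuretic peptide, lies at 148000722 to 148002074. The places of cytosines in each amplicon were laid along the 300-base RefSeq promoter window of its gene (GRCm38.p6) at every shift with at least 80 positions in common. For 10 of 30 regions a placement agreed at every position compared, among them Nppa_1 over 253 positions and Nppa_2 over 97. No such placement was found for the Nppb amplicons, where the best shifts agreed at 67 of 82 positions (Nppb_1) and 93 of 124 (Nppb_2). The window of Nppb, chr4:147985650-147985949 on the plus strand, holds 7 CpGs, and the median of all 32851 windows is 7. The genome coordinates of the Nppb amplicons, and whether they lie in exon, intron or upstream sequence, are therefore not given here.

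A library held between 2.72e+07 and 3.25e+07 cytosine calls in all. A CpG of Nppb_1 had 6868 to 58102 reads in a library and one of Nppb_2 had 827 to 14746, the thinnest being offset 381. Amplicon reads carry no molecular identifiers, so they are not independent molecules and these counts bound counting error only. At the 72 and 95 cytosines outside CpG with enough coverage in Nppb_1 and Nppb_2, 0.131% to 0.150% and 0.151% to 0.272% of reads carried C, the highest value being DNMT3b siRNA replicate 3 in Nppb_2. These values bound incomplete conversion.

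The amplicons stood far apart in negative siRNA libraries. Nppb_1 averaged 4.32% ± 0.76 over its CpGs and Nppb_2 56.5% ± 4.56 (SD, n = 3). Within Nppb_1 the levels were highest at the edges of the amplicon and dipped at 2 places between them (all values here negative siRNA, SD, n = 3). Offset 59, at one edge, stood at 11.4% ± 1.55 and offset 310, at the other, at 8.80% ± 2.75. The 4 CpGs at offsets 97, 136, 176 and 211 stood between 0.584% ± 0.35 (offset 136) and 1.41% ± 0.26 (offset 211). Offsets 104 and 116, which part offset 97 from the other 3 low CpGs, and offsets 261 and 279 had means of 4.20% to 5.13%. Ranges of the negative libraries overlapped for offsets 97, 176 and 211, and so did those of offsets 104, 261 and 279. Offset 136 had at least 0.191% in each of the 9 libraries. Reads with C outside CpG in that amplicon made up at most 0.150% of a library, pooled over 72 cytosines. Single cytosines outside CpG were not compared, so these values do not place offset 136 above background. Offset 59 was the highest and offset 136 the lowest CpG of Nppb_1 in group mean in all 3 groups.

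Nppb_2 instead formed a slope. Its CpGs went from 91.7% ± 2.12 at offset 51 through 73.5% ± 2.88 at offset 238 and 62.3% ± 4.52 at offset 312 to 23.6% ± 5.23 at offset 381 in negative siRNA. The order was broken only at the close pair 13 bp apart, where offset 341 (48.5% ± 6.99) stood above offset 328 (39.7% ± 6.97). The order 51, 238, 312, 341, 328, 381 held in 9 of 9 libraries, knockdown libraries included. Between libraries, however, the ranges of offsets 328 and 341 overlapped in the negative and DNMT3a siRNA groups, as did those of offsets 312 and 341 with DNMT3a siRNA. The plot of levels by CpG shows both profiles.

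**Figure D1:**
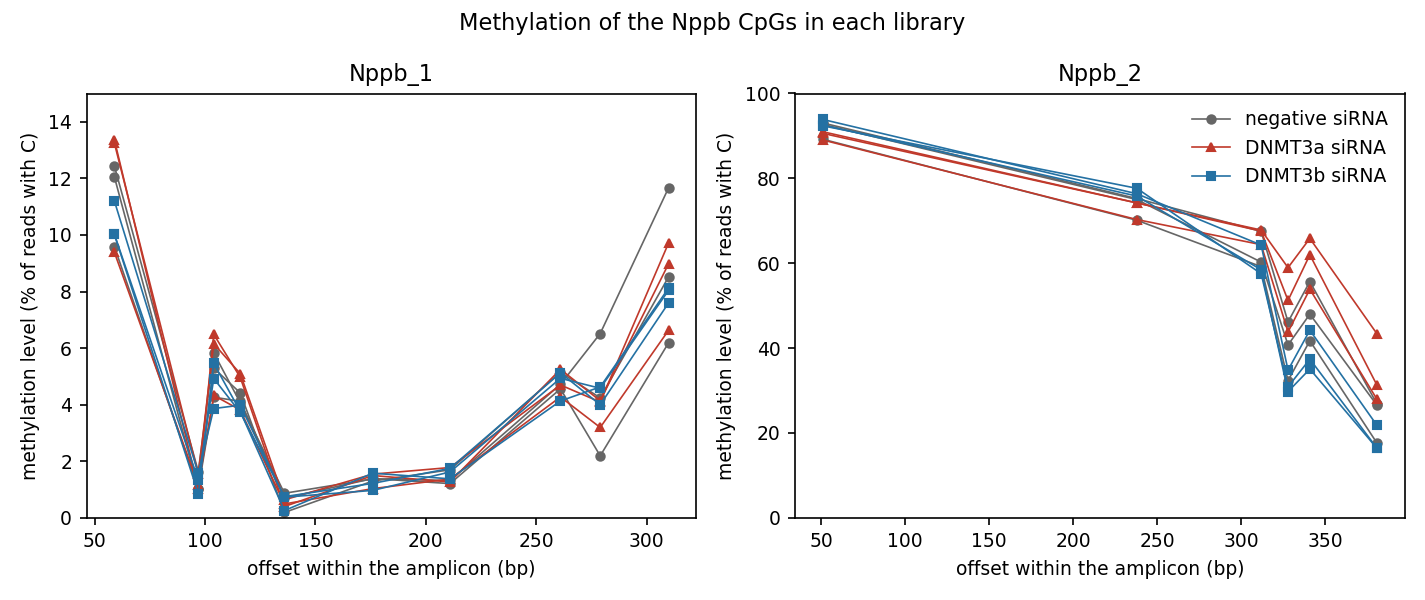
Methylation level (percent of reads with C, y axis; the scales of the panels differ) against offset within the amplicon in bp (x axis) for Nppb_1 and Nppb_2, one line per library, 3 per siRNA. In Nppb_2 the DNMT3a siRNA lines lie above the DNMT3b siRNA lines from offset 312 on and below them at offsets 51 and 238; in Nppb_1 the groups overlap at every CpG when these 2 knockdowns are compared.

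The 3 CpGs at the low end of Nppb_2 separated the groups most. At offset 341 the negative siRNA libraries read 55.7%, 41.7% and 48.0%, the DNMT3a siRNA libraries 62.0%, 65.8% and 53.9%, and the DNMT3b siRNA libraries 44.2%, 35.1% and 37.4% (replicates 1 to 3). All DNMT3a libraries lay above all DNMT3b libraries, and the negative libraries lay across the gap and overlapped both. The group means were 60.6% ± 6.11 with DNMT3a siRNA and 38.9% ± 4.75 with DNMT3b siRNA (SD, n = 3), a log2 odds ratio of 1.28 ± 0.27 SE between them (edgeR adjusted p = 0.173 over 310 sites).

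At offset 328 the libraries read 46.2%, 32.3% and 40.7% with negative siRNA, 51.2%, 59.0% and 43.8% with DNMT3a siRNA, and 34.8%, 29.7% and 30.9% with DNMT3b siRNA. The knockdowns were again apart without overlap, while negative siRNA overlapped both. The log2 odds ratio of DNMT3a over DNMT3b was 1.18 ± 0.29 SE (edgeR adjusted p = 0.236). At offset 381, with 827 to 1196 reads, negative siRNA libraries read 26.8%, 17.6% and 26.5%, DNMT3a siRNA libraries 31.2%, 43.3% and 27.9%, and DNMT3b siRNA libraries 21.8%, 16.4% and 16.4%. Here all DNMT3a libraries also lay above all negative ones. The log2 odds ratio between the knockdowns was 1.22 ± 0.31 SE (edgeR adjusted p = 0.236).

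At the methylated end the order of the groups was turned around. At offset 51 the libraries read 93.1%, 89.2% and 92.7% with negative siRNA, 90.6%, 91.0% and 89.0% with DNMT3a siRNA, and 93.9%, 92.6% and 92.4% with DNMT3b siRNA. At offset 238 they read 75.2%, 70.1% and 75.0%, then 74.2%, 74.2% and 70.3%, then 76.4%, 75.8% and 77.7%, in the same order of groups. At both CpGs all DNMT3a libraries were below all DNMT3b libraries, and at offset 238 all DNMT3b libraries were above all negative ones. The log2 odds ratios of DNMT3a over DNMT3b were -0.51 ± 0.22 SE at offset 51 and -0.28 ± 0.19 SE at offset 238 (edgeR adjusted p = 0.550 and 0.648).

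Offset 312 sits between these ends in position and in level. Its libraries read 67.5%, 59.2% and 60.3% with negative siRNA, 67.6%, 67.8% and 64.4% with DNMT3a siRNA, and 64.3%, 58.5% and 57.5% with DNMT3b siRNA. It sided with the low end, since the DNMT3a libraries were above the DNMT3b ones by the narrow gap between 64.4% and 64.3% (log2 odds ratio 0.40 ± 0.21 SE, edgeR adjusted p = 0.623).

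DNMT3a siRNA was compared with negative siRNA to see which of these CpGs differ when DNMT3a is targeted. Means were higher at 4 of 6 CpGs of Nppb_2, by 12.1 points at offset 341, 11.6 at offset 328, 10.5 at offset 381 and 4.27 at offset 312, and lower by -1.44 and -0.55 points at offsets 51 and 238. By size of difference in points, offsets 341, 328 and 381 ranked 1, 3 and 4 among 310 sites. By unadjusted edgeR p they ranked 18, 30 and 29. Sites with levels near 0% can differ by few points only, so a ranking by points favours sites of middle level. Over all sites means were higher at 39.4%, and the median difference was -0.094 points, against 7.40 over the CpGs of Nppb_2 and 0.0089 over those of Nppb_1. EdgeR called 0 of the 16 Nppb sites at an adjusted p under 0.05, as it did 0 of 310 in all (0%), and so did limma and DESeq2. Unadjusted p-values were under 0.05 at 3 of 6 sites of Nppb_2 (offsets 328, 341 and 381, log2 odds ratios 0.69 to 0.75, edgeR adjusted p = 0.375 each) and at 0 of 10 of Nppb_1, where 12.6% of all sites reach this. Groups did not overlap at 1 of the 16 sites, offset 381, against 15.2% of all sites.

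DNMT3b siRNA gave the opposite signs in Nppb_2. Means were lower than with negative siRNA at 4 of 6 CpGs, by -9.57 points at offset 341, -7.94 at offset 328, -5.45 at offset 381 and -2.23 at offset 312, and higher by 1.29 and 3.16 points at offsets 51 and 238. Over all sites means were lower at 68.7% and higher at 31%, and the median difference was -0.24 points, against -3.84 in Nppb_2 and -0.089 in Nppb_1. EdgeR called 0 of 16 Nppb sites (0% of all sites), as did limma and DESeq2, and 0 of 16 had an unadjusted p under 0.05, against 11% of all sites. The smallest was offset 341 (log2 odds ratio -0.57 ± 0.27 SE, edgeR adjusted p = 0.460). Groups did not overlap at offset 238 of Nppb_2 and offset 116 of Nppb_1, 2 of 16 where 20.6% of all sites do not. At offset 116 the negative siRNA libraries read 4.42%, 4.12% and 4.07% and the DNMT3b siRNA libraries 3.73%, 3.76% and 3.98%. These 2 comparisons share the negative siRNA libraries, so their opposite signs are not independent of each other. With single libraries left out, the log2 odds ratio turned sign at offset 238 for DNMT3a siRNA and at offset 312 for DNMT3b siRNA.

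In the direct comparison of the knockdowns, the differences and overlaps do not use the negative libraries. The edgeR p-values do in part, since their dispersion is estimated on all 9 libraries. All 6 CpGs of Nppb_2 were apart without overlap, 4 higher and 2 lower with DNMT3a siRNA, against 13.5% of all 310 sites and 0 of 10 in Nppb_1. By size, offsets 341, 328 and 381, at 21.7, 19.5 and 16.0 points, ranked 2, 3 and 4 of 310. EdgeR called 0 of these 16 sites and 0 of all sites (0%), and unadjusted p-values were under 0.05 at 4 of 6 in Nppb_2 (offsets 51, 328, 341 and 381), where 7.42% of all sites reach this. Limma also called 0 of 16. DESeq2 on the same counts instead called 3 of 16, offsets 328, 341 and 381 (adjusted p = 0.0101, 0.00293 and 0.0317). The share of all 310 sites that DESeq2 called is not given here, so these calls have no background beside them. Groups without overlap in both directions within an amplicon were found in 3 of 26 regions, Nppb_2, Camta1_1 and Cdkn1b_1. In the latter 2 the sites without overlap had group means of at most 0.585% and differed by at most 0.275 points. Against negative siRNA such regions numbered 2 for DNMT3a and 1 for DNMT3b siRNA, and Nppb_2 was not among them. CpGs of an amplicon share molecules and are not replicates.

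**Figure D2:**
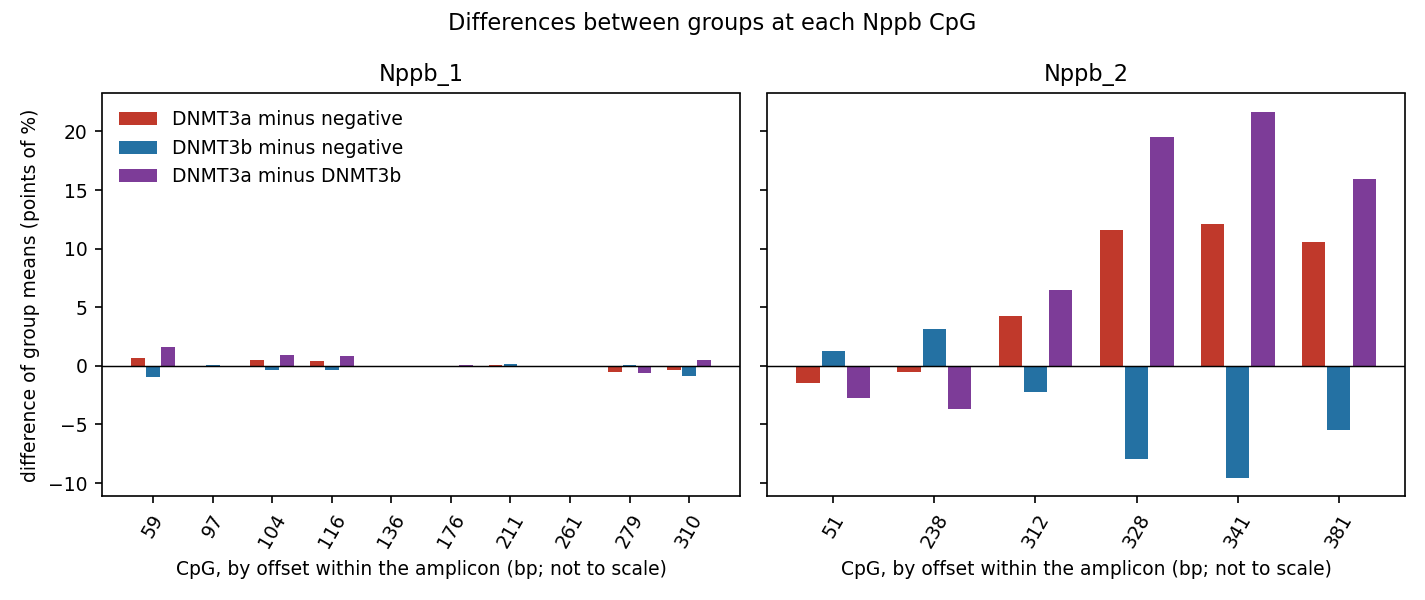
Difference of group means in points of percent (y axis) for each CpG of Nppb_1 and Nppb_2 (x axis, by offset, not to scale), one bar per comparison. In Nppb_2 the bars of DNMT3a and DNMT3b siRNA against negative siRNA point opposite ways at each of the 6 CpGs, with a change of sign between offsets 238 and 312, and no bar of Nppb_1 passes 1.58 points. The sign at offset 238 for DNMT3a siRNA and at offset 312 for DNMT3b siRNA turned in log2 odds ratio with single libraries left out.

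The spread across CpGs of an amplicon, the SD of their levels within a library, describes this change of slope without a choice of sites. It is taken from the same levels and is not a separate readout. Within each group of Nppb_2, libraries with a higher mean over the amplicon had a lower spread. In Nppb_2 it was 23.2, 26.2 and 24.0 points in negative siRNA libraries, 20.3, 15.8 and 21.4 with DNMT3a siRNA, and 27.1, 29.3 and 29.1 with DNMT3b siRNA. No 2 groups overlapped: every DNMT3a library had a flatter profile than every negative library, and every DNMT3b library a steeper one. Group values were 19.2 ± 2.93, 24.5 ± 1.57 and 28.5 ± 1.22 points for DNMT3a, negative and DNMT3b siRNA (SD, n = 3). With 3 against 3 libraries an exact permutation test cannot give a p below 0.10.

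Among the 26 regions, Nppb_2 was the only region whose spread was free of overlap in all 3 comparisons. Its difference of -9.38 points between DNMT3a and DNMT3b siRNA was the largest, followed by 3.87 at Myh7b_1. The share of regions with no overlap in spread was 26.9% in that comparison, 23.1% for DNMT3a against negative siRNA and 15.4% for DNMT3b against negative siRNA. Against negative siRNA the spread of Nppb_2 ranked first for DNMT3a (-5.33 points) and second for DNMT3b (4.05 points), behind -4.44 at Myh7b_1. Regions whose levels all lie near 0% can differ in spread by few points only, so these rankings favour the other regions. The spread of Nppb_1 was 3.57 ± 0.70, 3.64 ± 0.72 and 3.19 ± 0.16 points with negative, DNMT3a and DNMT3b siRNA, with overlap in each comparison.

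**Figure D3:**
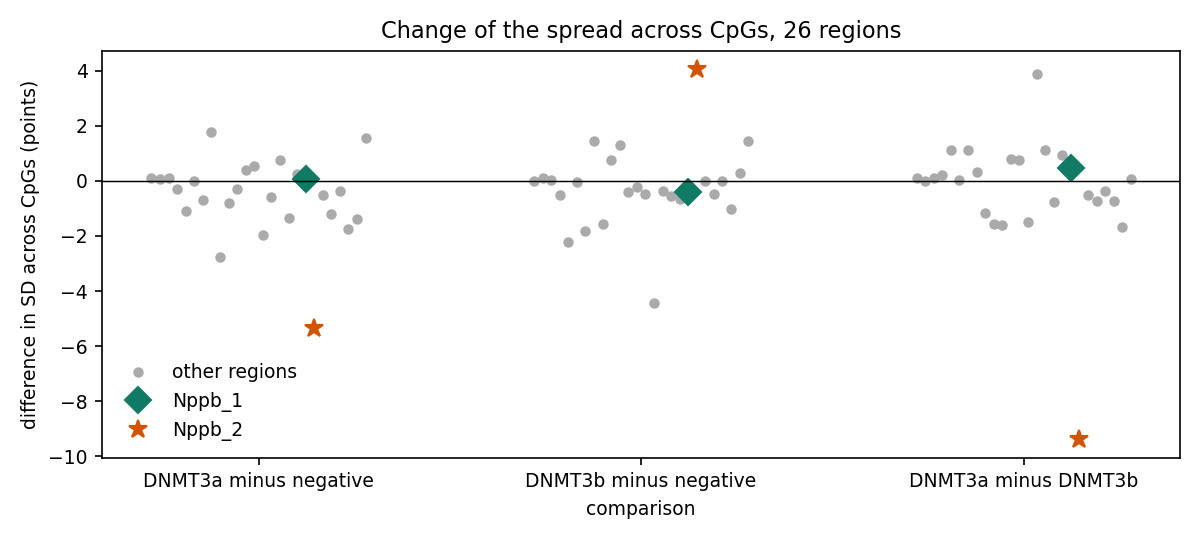
Difference between groups in the SD of levels across the CpGs of a region, in points (y axis), for 26 regions in each comparison (x axis); points within a comparison are set apart sideways for legibility. Nppb_2 (star) lies at -5.33, 4.05 and -9.38 points, and Nppb_1 (diamond) within 0.46 points of 0.

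The mean over the amplicon adds CpGs that differed in both directions. The mean of Nppb_2 was 60.7%, 51.7% and 57.2% in negative siRNA libraries, 62.8%, 66.9% and 58.2% with DNMT3a siRNA, and 55.9%, 51.3% and 52.0% with DNMT3b siRNA. DNMT3a libraries lay above all DNMT3b libraries and overlapped with negative ones. Regions whose means did not overlap made up 15.4% in that comparison. The difference between the knockdowns was 9.54 points in this mean over CpGs. On summed reads, which weight CpGs by coverage, the log2 odds ratio was 0.51 ± 0.16 SE. It had the smallest p of 26 regions but was not a call (edgeR adjusted p = 0.231, with 0% of regions called). Against negative siRNA the log2 odds ratio of Nppb_2 was 0.29 ± 0.16 SE with DNMT3a siRNA (edgeR adjusted p = 0.339) and -0.22 ± 0.16 SE with DNMT3b siRNA (adjusted p = 0.493). In the mean over CpGs, DNMT3a siRNA differed from negative siRNA by 6.08 points. This became 3.66 when negative siRNA replicate 2 was left out and 3.97 when DNMT3a siRNA replicate 2 was. DNMT3b siRNA differed from negative siRNA by -3.46 points in that mean. This became -5.88 when replicate 2 of negative siRNA was left out and -1.36 when replicate 1 of negative siRNA was.

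In Nppb_1 no difference of region means passed the spread between libraries. Its mean was 4.39%, 3.52% and 5.04% with negative siRNA, 4.74%, 4.85% and 3.57% with DNMT3a siRNA, and 4.04%, 4.02% and 4.15% with DNMT3b siRNA. The groups overlapped in each comparison. Log2 odds ratios were 0.03 ± 0.15 SE for DNMT3a and -0.06 ± 0.15 SE for DNMT3b against negative siRNA (edgeR adjusted p = 0.940 and 0.775), and 0.09 ± 0.15 SE between the knockdowns (adjusted p = 0.734). The sign of the difference from negative siRNA turned when single libraries were left out. For DNMT3a this was so for negative siRNA replicate 2 (-0.33 points), DNMT3a siRNA replicate 1 (-0.11) and DNMT3a siRNA replicate 2 (-0.17), and for DNMT3b for negative siRNA replicate 3 (0.12). Of its 10 CpGs, 6 were higher and 4 lower in mean with DNMT3a than with DNMT3b siRNA, where 58.4% of all sites were higher and 41.6% lower. The largest difference of group means at any CpG of Nppb_1 was 1.58 points, at offset 59 between the knockdowns (edgeR adjusted p = 0.753).

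Per library, the gap between the amplicons (Nppb_2 minus Nppb_1) was 52.2 ± 4.09 points with negative, 58.2 ± 3.69 with DNMT3a and 49.0 ± 2.46 with DNMT3b siRNA (SD, n = 3). The 9.23 points between the knockdowns came without overlap, and both groups overlapped with negative siRNA. Against negative siRNA the gap differed by 6.02 points with DNMT3a siRNA, 3.99 when negative siRNA replicate 2 was left out, and by -3.21 with DNMT3b siRNA, -1.15 when negative siRNA replicate 1 was left out and -5.24 when replicate 2 was. The plot of region means and spread shows these values side by side.

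**Figure D4:**
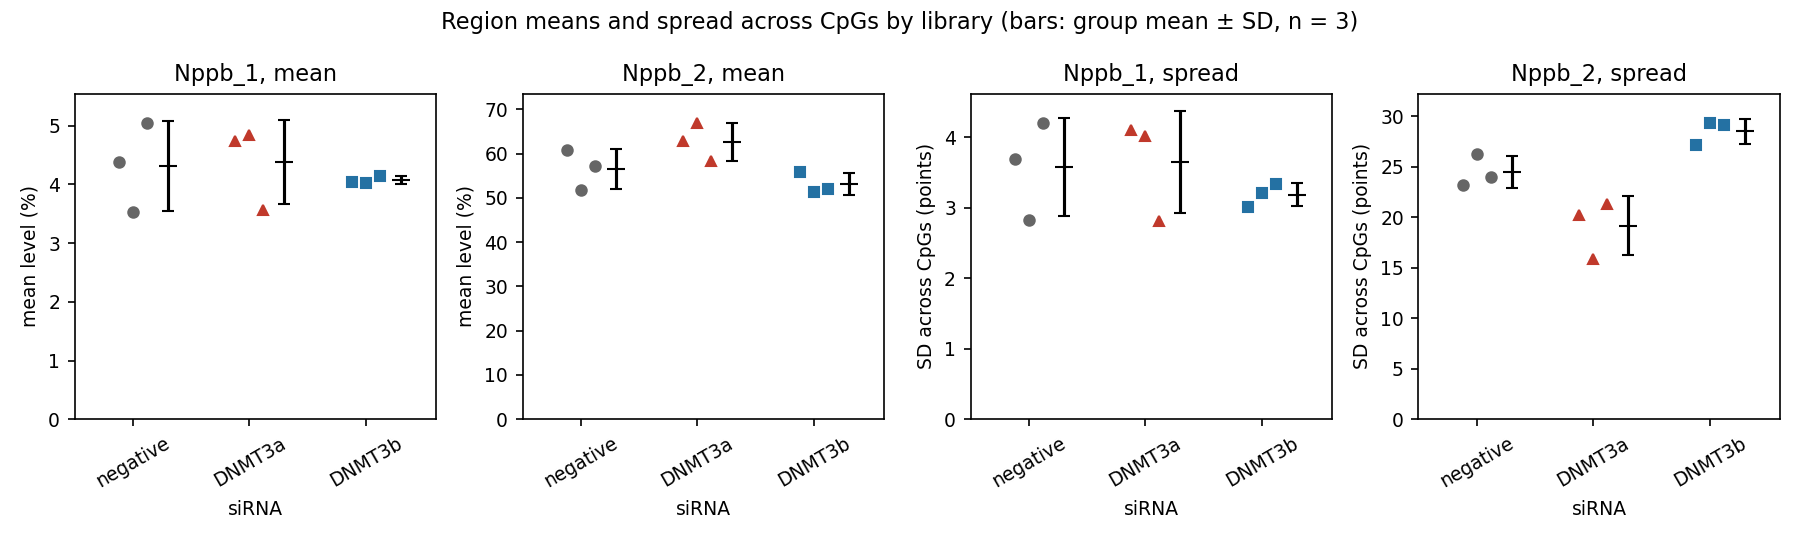
Mean level over CpGs (percent) and SD across CpGs (points) for Nppb_1 and Nppb_2 in each library (points) by siRNA (x axis), with group mean ± SD, n = 3, beside them. The spread of Nppb_2 separates the 3 groups, at 15.8 to 21.4, 23.2 to 26.2 and 27.1 to 29.3 points for DNMT3a, negative and DNMT3b siRNA.

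Negative siRNA replicate 2 was the lowest of its group at 6 of 6 CpGs of Nppb_2 and replicate 1 the highest at 6 of 6. Among DNMT3a siRNA libraries, replicate 3 was lowest and replicate 2 highest at 6 of 6. Libraries of these groups thus kept their order along the amplicon. Those with DNMT3b siRNA did not: replicate 1 was highest at 5 of 6 CpGs, replicate 2 lowest at 4 of 6, and replicate 3 lowest at 2 of 6 (offsets 51 and 312) but highest at offset 238. In Nppb_1, negative siRNA replicate 2 was lowest of its group at 6 of 10 CpGs and DNMT3a siRNA replicate 3 at 7 of 10.

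Correlations between CpGs of Nppb_2 over the 9 libraries are given as a description without p, because the CpGs share amplicon and library. The 4 CpGs from offset 312 on were correlated with each other at Pearson r = 0.81 to 0.99, and offsets 51 and 238 with each other at r = 0.89. Between these 2 sets all 8 pairs had a negative r, of -0.07 to -0.29. With the group means removed, all 15 pairs were positive, from 0.49 for offsets 238 and 312 to 0.95 for offsets 328 and 341. These values pool the 3 groups, and the SD of the DNMT3b siRNA libraries was smaller than that of each other group at 5 of 6 CpGs. Of the 45 pairs in Nppb_1, 35 had a positive r and 38 with group means removed.

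**Figure D5:**
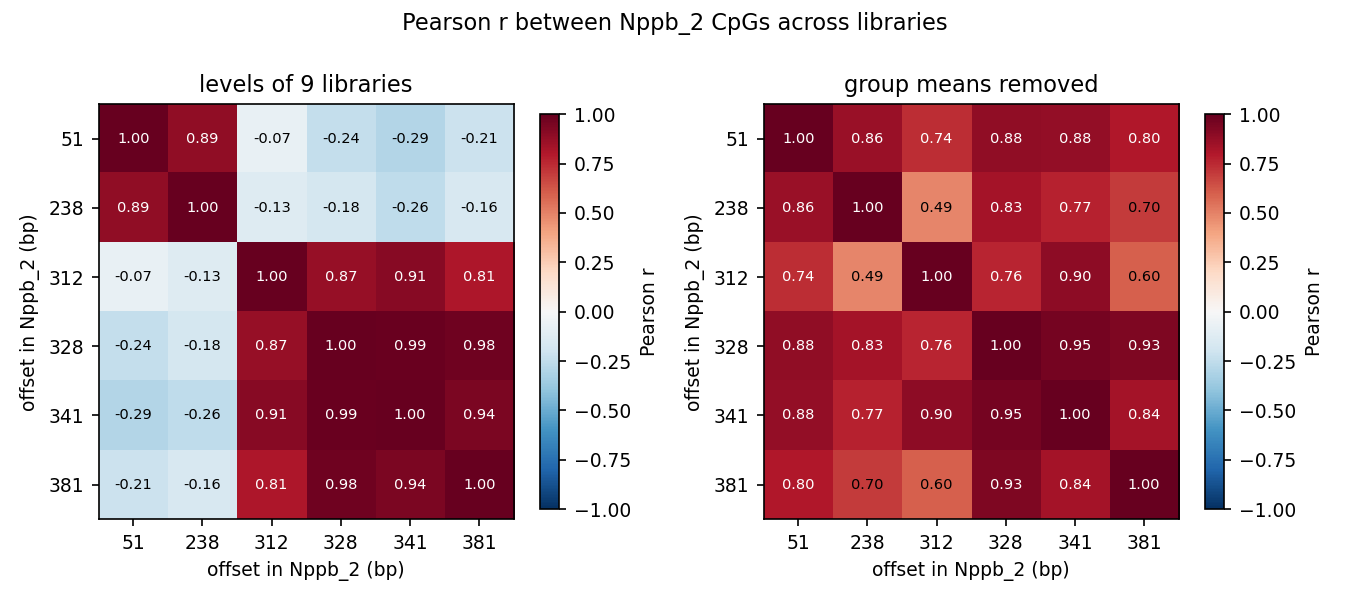
Pearson r between the levels of each pair of Nppb_2 CpGs (axes: offset in bp) over 9 libraries, as measured on the left and with each group's mean removed on the right. On the left offsets 51 and 238 form a set apart from the other 4 (r between the sets -0.07 to -0.29), and on the right all 15 pairs are positive.

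By Pearson r over the 9 libraries, the region whose mean was most like both Nppb amplicons was Nppa_1, the promoter amplicon of the neighbouring gene. Its Pearson r was 0.88 with Nppb_2 (exact permutation p = 0.00196, adjusted p = 0.0940 over 49 pairs of regions) and 0.86 with Nppb_1 (exact permutation p = 0.00384, adjusted p = 0.0940). Spearman's rho was 0.83 and 0.77 (exact permutation p = 0.00827 and 0.0214, adjusted p = 0.349 each). Without the 2 libraries farthest from the median of the Nppb amplicon r was 0.79 and 0.77, and with group means removed it was 0.86 and 0.93. None of the 49 pairs passed after adjustment. The permutations shuffle all 9 libraries across the siRNA groups, so these p-values also take in differences between groups. No p was computed with group means removed. Next for Nppb_2 came Myh7b_1 (r = 0.81, rho 0.77, exact permutation p = 0.00957 and 0.0214, adjusted p = 0.156 and 0.349) and Camta2_1 (r = 0.67, rho 0.55, exact permutation p = 0.0480 and 0.133, adjusted p = 0.378 and 0.723). For Myh7b_1 r was 0.82 without the 2 farthest libraries and 0.88 with group means removed, both above the values of Nppa_1 with Nppb_2. The mean of Myh7b_1 had an SD of 11.9 points among negative libraries. Its offset 145 had group means of 37.6%, 40.1% and 7.37% with negative, DNMT3a and DNMT3b siRNA. Between the knockdowns offset 145 differed by 32.7 points and offset 161 by 5.05, and at both the groups overlapped. At offset 145 the log2 odds ratio was 4.18 ± 1.48 SE (edgeR adjusted p = 0.466). How far the likeness rests on offset 145 was not tested. For Camta2_1 r was 0.25 without the 2 farthest libraries, so that relation rests on them. Its group means were 0.226% to 0.392%, near the conversion limit. Next for Nppb_1 came Nppa_2 (r = 0.73, rho 0.68, exact permutation p = 0.0244 and 0.0503, adjusted p = 0.299 and 0.493) and Nppb_2 itself (r = 0.62, rho 0.63, exact permutation p = 0.0771 and 0.0760, adjusted p = 0.459 and 0.532). Without the 2 farthest libraries these were 0.23, so that the relation with Nppa_2 rests on those libraries, and 0.60.

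The amplicons of Nppa, the other natriuretic peptide gene measured, differed from Nppb_2 in the directions of their CpGs. The spread of Nppa_1 was nevertheless also lower with DNMT3a siRNA, without overlap. It was 24.2, 23.1 and 24.8 points against 25.4, 25.4 and 25.3 with negative siRNA, where 23.1% of regions do not overlap. This difference was -1.33 points, against -5.33 in Nppb_2. With DNMT3b siRNA the spread of Nppa_1 was 25.1, 25.1 and 24.3 points. In Nppa_1, 11 of 11 CpGs were higher in mean with DNMT3a than with DNMT3b siRNA (6 of them without overlap), and in Nppa_2 5 of 6 were (1 without overlap), against 58.4% of all sites higher and 13.5% without overlap. Against negative siRNA, DNMT3b siRNA was lower in mean at 11 of 11 and 6 of 6, against 68.7% of all sites. DNMT3a siRNA was higher in mean at 9 of 11 and 3 of 6, against 39.4%. EdgeR called 0 of the 17 Nppa sites in each comparison, with unadjusted p under 0.05 at 0, 1 and 6 of them for DNMT3a against negative, DNMT3b against negative and DNMT3a against DNMT3b siRNA, where 12.6%, 11% and 7.42% of all sites reach this.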

How the data were processed

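Each library was a pool of bisulfite amplicons, tagmented and sequenced on a MiSeq per the labels' protocols. The submitters' processing notes name FastQC, Bismark, Bowtie2 and the build mm10. Versions and settings are not given in the sources used here. For each cytosine the authors deposited, per the file headers, its coverage (a read count) and the percent of its reads with C and with T. Coverage times percent gave whole reads for 23884 of 23884 covered values (within 0.01 reads), which were used as methylated counts.

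CpGs with at least 30 reads in all 9 libraries were kept. The edgeR test (version 4.0.16, under R 4.3.3) was run on sites and on regions (summed counts) (quasi-likelihood, methylated and unmethylated counts, a coefficient per library, all 9 libraries in a single fit), two-sided, with Benjamini-Hochberg adjustment over all 310 sites or 26 regions and a threshold of 0.05. The fit was also run on simulated data, whose outcome is not given here and is not used as support. Region means and spreads are compared by value: exact two-sided permutation tests of 3 against 3 libraries cannot go below 0.10, and none passed 0.05. Region likeness used exact permutations of 9 libraries. Alternatives were limma 3.58.1 (prior count 2), DESeq2 1.42.0, coverage minimums of 10 and 100, pooled reads, a fit to the 6 libraries compared, a replicate block and leaving out each library. Every Nppb CpG is accounted for. Of other genes, Nppa and the 3 regions most like each amplicon are named by rule, and Camta1_1 and Cdkn1b_1 were named after their values were seen. The members and lists were chosen with earlier results of these data known. Replicates of a group differed beyond read-counting noise, with a mean chi-square of 14.9 or more per site in each pair. That test takes reads as independent molecules, and the number of template molecules is not known. Gene positions and promoter windows are from RefSeq (GRCm38.p6).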

Additional observations from a re-analysis of the deposited data

Results flagged for a closer look

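In Nppb_2 some values had every DNMT3a siRNA library on one side of the negative siRNA mean and every DNMT3b siRNA library on the other. Mean distances from the negative mean are given in points, DNMT3a first. They were -1.44 and 1.29 at offset 51, 11.6 and -7.94 at offset 328, 12.1 and -9.57 at offset 341, and 10.5 and -5.45 at offset 381. For the mean of Nppb_2 they were 6.08 and -3.46, for its spread across CpGs -5.33 and 4.05, and for Nppb_2 minus Nppb_1 6.02 and -3.21. Both distances use the same 3 negative libraries. The difference between the knockdowns at these CpGs was not called by edgeR (adjusted p = 0.173 to 0.550). DESeq2 called offsets 328, 341 and 381 (adjusted p = 0.0101, 0.00293 and 0.0317), and the share of all sites it called is not given here. For Nppb_2 as a whole the difference between the knockdowns was not called by edgeR on summed reads (adjusted p = 0.231). For the spread and the gap an exact permutation test of 3 against 3 libraries cannot give a p below 0.10.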

How the results depend on the processing

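Alternatives are compared with the main values by sign and threshold. Across coverage minimums of 10 and 100, limma, DESeq2, the fit to 6 libraries, the replicate block and leaving out each library, 0 of 16 Nppb sites were called in each comparison, except that DESeq2 called 3 between DNMT3a and DNMT3b siRNA. The cause was not tested, and the share of all sites that DESeq2 called is not given here. At offsets 328, 341 and 381 that log2 odds ratio stayed positive in each setting (0.96 to 1.40, 1.12 to 1.48 and 0.93 to 1.42), with adjusted p up to 0.826. No value of Nppb_2 as a whole changed sign. With each library left out its mean differed by 3.66 to 8.29 points (DNMT3a against negative siRNA), -5.88 to -1.36 (DNMT3b against negative) and 7.42 to 11.7 (between the knockdowns), and its spread by -6.43 to -3.67, 3.41 to 4.93 and -10.5 to -7.72. Nppb_2 minus Nppb_1 differed by 3.99 to 8.08, -5.24 to -1.15 and 7.34 to 11.0. On reads pooled over sites its mean differed by 4.60, -3.72 and 8.32 points.

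Nppb_1 turned sign when single libraries were left out. Ranges over these were, for DNMT3a against negative siRNA, -0.089 to 0.15 for the log2 odds ratio, -0.33 to 0.48 points for the mean and -0.30 to 0.49 for the spread. For DNMT3b against negative siRNA they were -0.18 to 0.063 and -0.64 to 0.12 points for the mean. Counted after seeing the data, CpGs of Nppb_1 higher in mean numbered 3 to 9 (DNMT3a against negative), 2 to 5 (DNMT3b against negative) and 5 to 8 (between the knockdowns), and those of Nppb_2 4 to 5, 2 to 3 and 4 in each case.

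Single CpGs whose log2 odds ratio turned sign with a library left out are given by offset. For DNMT3a against negative siRNA in Nppb_1, offset 59 ran from -0.050 to 0.27, 97 from -0.14 to 0.27, 136 from -0.64 to 0.41, 176 from -0.12 to 0.17, 211 from -0.082 to 0.21, 261 from -0.11 to 0.051, 279 from -0.50 to 0.32 and 310 from -0.28 to 0.22, and in Nppb_2 offset 238 from -0.16 to 0.051. Offset 136 also turned with limma (0.034) and DESeq2 (0.00084). For DNMT3b against negative siRNA in Nppb_1, offset 97 ran from -0.16 to 0.28, 104 from -0.25 to 0.028, 136 from -0.56 to 0.54, 176 from -0.32 to 0.035, 261 from -0.093 to 0.069, 279 from -0.28 to 0.54 and 310 from -0.37 to 0.13, and in Nppb_2 offset 312 from -0.26 to 0.024. Between the knockdowns in Nppb_1, offset 97 ran from -0.25 to 0.19, 136 from -0.57 to 0.19, 176 from -0.052 to 0.31, 261 from -0.094 to 0.080 and 310 from -0.038 to 0.26.

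Libraries of different groups share replicate numbers, but correlations of deviations from group means over 310 sites were -0.15 to 0.16 in the 9 same-numbered pairs (3 over 0.1), against -0.29 to 0.23 in other pairs, and 3 of 9 libraries correlated best with their own number. The numbers were therefore not taken as pairs. With a replicate block edgeR called 0 Nppb sites in each comparison, and the log2 odds ratios of Nppb_2 were 0.29, -0.22 and 0.51 (adjusted p = 0.343, 0.564 and 0.209).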
